A study of Homo sapiens with 2 samples.

Results

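Genes named ZNF with a number encode zinc finger proteins, and 141 of them were well expressed in the NK92 cells sequenced here. The members were selected on their own counts. They are the protein-coding genes of the deposited table whose symbol is ZNF, a number and at most 1 letter, and whose reads summed over both libraries reached 1500. The table lists 46427 genes and 512 protein-coding ZNF genes, of which 168 had no read, 344 had at least 1 and 318 had at least 20. NK92 cells are a human line of the natural killer type, and the antibody PPMX-T003 blocks transferrin receptor 1, the receptor by which cells take up iron-loaded transferrin. Exposure to PPMX-T003 at 10 µg/mL lasted 6 h, beside an unexposed dish kept for as long. The dishes came from a single preculture of 18 h, and the medium held human serum. Each dish gave 1 stranded library of poly(A) RNA, with 46766416 counts without and 43178462 counts with the antibody. The deposited columns carry the names 0 h and 6 h, although the methods give both dishes the same extra time, and 0 h is taken here to mean the unexposed cells. With n = 1 per condition there was no replicate check of any difference, and no test across genes was made.

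Most C2H2 zinc finger proteins bind DNA through tandem fingers, each a short loop held by a zinc ion between a pair of cysteines and a pair of histidines. Many also carry a KRAB domain at the amino-terminal end, which recruits the corepressor TRIM28 and through it enzymes that methylate histone H3 on lysine 9, and a large part of this group silences transposable elements. Their genes arose by tandem duplication and lie in clusters, above all on chromosome 19, and their mRNAs are known as short-lived. Half-lives were not measured in these libraries, so the known instability is background and not a result.

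The fingers themselves show how far the members differ in base composition. The units printed here come from the 3 lowest and the 3 highest members, by the bound of the counting interval nearest to 0, in which such a unit lies within 1 exon. Each is the earliest finger of the coding sequence that is followed by the conserved linker, read 5′ to 3′ on the coding strand in GENCODE 29 transcripts on GRCh38, the same build as hg38. Each unit has 84 bases, and capitals mark the codons of the zinc-binding cysteines and histidines. The following units belong to members that were lower with PPMX-T003.
ZNF431: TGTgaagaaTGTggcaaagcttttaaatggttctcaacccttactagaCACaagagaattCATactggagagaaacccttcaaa
ZNF510: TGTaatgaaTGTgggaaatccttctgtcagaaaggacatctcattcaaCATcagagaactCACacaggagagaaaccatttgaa
ZNF264: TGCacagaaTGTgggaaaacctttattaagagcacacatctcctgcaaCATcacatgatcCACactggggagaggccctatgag
The next units belong to members that were higher.
ZNF668: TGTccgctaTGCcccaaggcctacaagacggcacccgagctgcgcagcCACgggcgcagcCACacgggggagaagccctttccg
ZNF787: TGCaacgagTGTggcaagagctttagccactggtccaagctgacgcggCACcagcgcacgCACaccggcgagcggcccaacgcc
ZNF213: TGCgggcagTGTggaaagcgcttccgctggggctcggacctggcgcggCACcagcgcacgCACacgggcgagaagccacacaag
The unit of ZNF431 lies at chr19:21183003-21183086 on the plus strand, that of ZNF510 at chr9:96759531-96759614 on the minus strand and that of ZNF264 at chr19:57211794-57211877 on the plus strand. The unit of ZNF668 lies at chr16:31064121-31064204 on the minus strand, that of ZNF787 at chr19:56088887-56088970 on the minus strand and that of ZNF213 at chr16:3140922-3141005 on the plus strand. The search required 1 fixed spacing of the zinc-binding codons, so this spacing is the same in all 6. GC content was 38.1%, 39.3% and 47.6% in the lower members and 69.0%, 66.7% and 70.2% in the higher ones. Over the 91 members with at least 1 such unit, 460 units in all, the mean GC content of a gene's units ran from 35.5% to 72.6%, with a median of 45.2%. Spearman's rho between this mean and the log2 fold change was 0.48 (Pearson's r 0.54, n = 91 genes), given as a description, since the genes share the same pair of libraries.

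Per transcript length the members' median lay below that of other genes. The deposited TPM, a length-adjusted value that the authors rounded to whole numbers, had a median of 17 over the members in both libraries, against 41 and 39 for the 6731 other protein-coding genes within the members' range of summed counts. These are called genes of like expression below, although only the range of counts was matched. Median counts without and with PPMX-T003 were 1486 and 1409 in members and 2885 and 2619 in these genes, so part of the lower TPM restates lower counts. ZNF207, which binds microtubules and loads the checkpoint protein BUB3 in mitosis, was highest, at 168 TPM without and 153 TPM with PPMX-T003. ZNF593, whose yeast counterpart acts in the export of large ribosomal subunits, had 140 and 142 TPM, ZNF22 had 139 and 123, and the nucleolar protein gene ZNF330 had 126 and 105. ZNF146, which encodes a protein made almost wholly of fingers, followed with 121 and 105 TPM. These 5 members had the highest TPM, a value that favours short transcripts.

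Together the members took 320195 counts without PPMX-T003, or 0.685% of the library (95% Clopper-Pearson interval 0.682% to 0.687%). With the antibody they took 280190 counts, or 0.649% (0.647% to 0.651%). Such intervals hold counting error and nothing else, so they set the libraries apart and say nothing of dish-to-dish variation. In bulk RNA, fewer cells with a transcript and less of it per cell cannot be told apart.

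The median member was slightly lower with PPMX-T003. The median log2 fold change of TMM-scaled counts (trimmed mean of M-values) was -0.066 over the 141 members, with quartiles of -0.16 and 0.069 and a range from -0.39 to 0.45. It was -0.011 over all 7633 genes with at least 1500 counts and -0.015 over the genes of like expression, whose quartiles were -0.12 and 0.082. Of the members, 89 lay below 0 (63.1%), as did 3621 of the genes of like expression (53.8%). The members' median stayed below 0 under the other scalings of counts, between -0.075 and -0.054. With deposited TPM it was -0.11, beside -0.059 for all genes. After removal of a regression on GC content and length it was -0.0073, beside -0.0080 for the protein-coding genes with a known transcript.

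Few members passed a 1.2-fold difference. At least 1.2-fold lower were 12 members (8.51%), beside 4.68% of all genes with at least 1500 counts, and at least 1.2-fold higher were 4 (2.84%), beside 2.27%. Under upper-quartile scaling these counts were 8 and 6, beside 4.11% and 2.73% of all genes, and with TPM they were 20 and 2, beside 9.22% and 1.38%. After removal of a regression on GC content and length they were 1 and 3, beside 2.196% and 0.984% of the protein-coding genes with a known transcript. The larger share of lower members therefore depends on the scale. By 95% Clopper-Pearson intervals on how each gene's reads were divided between the libraries, a lower share with PPMX-T003 was beyond counting error for 59 members (41.8%), beside 33.3% of all genes, and a higher share for 23 (16.3%), beside 28.4%. The remaining 59 members did not differ detectably at this depth. Such calls depend on counts, and at 1500 to 2500 counts 36.8% of members were lower and 17.5% higher, beside 22.8% and 23.3% of genes of like expression. From 2500 to 5000 counts these were 25% and 20.8%, beside 28.8% and 25.2%, and from 5000 counts 72.2% and 8.33%, beside 39.5% and 28.2%. Since the members were picked by the counts that also give these fold changes, the shares are a description of the family and not a test of it.

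**Figure D1:**
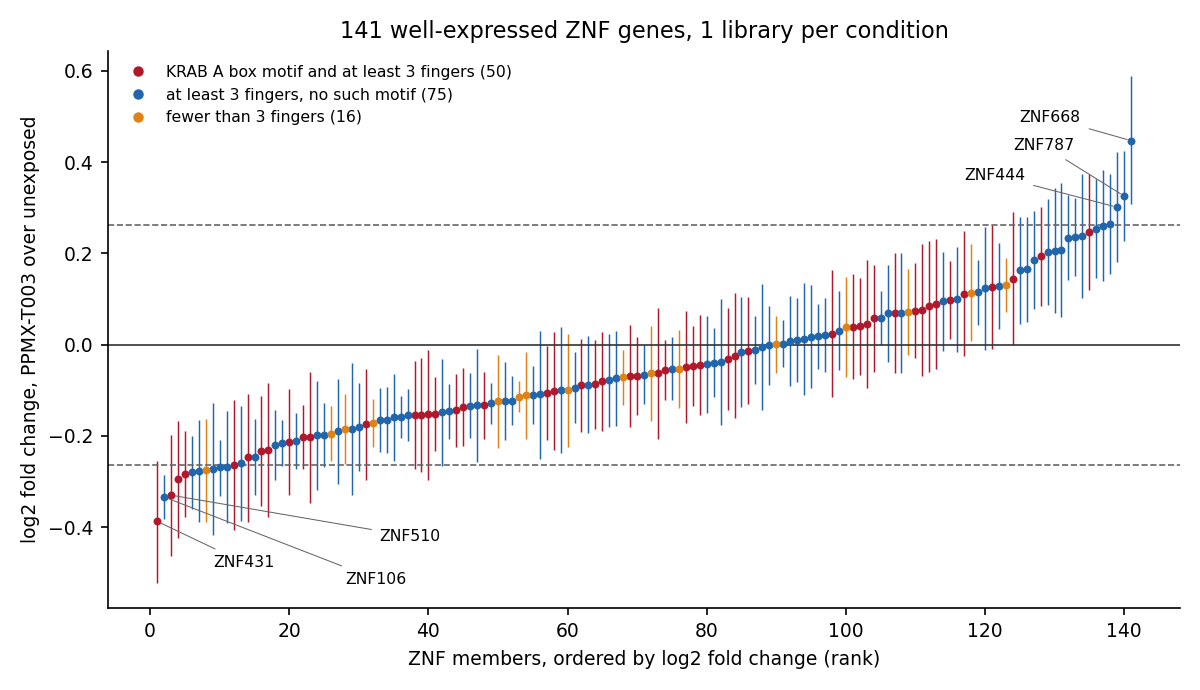
Log2 fold change (PPMX-T003 over unexposed, y axis) of each of the 141 members, ordered from lowest to highest on the x axis. Vertical lines are 95% Clopper-Pearson counting intervals, dashed lines mark a 1.2-fold difference and colours mark 3 protein classes. Values run from -0.39 (ZNF431) to 0.45 (ZNF668), and members of each class lie on both sides of 0.

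The members lowest by the bound of the interval nearest to 0 belonged to several kinds of protein. ZNF106, an RNA-binding protein linked to splicing (NCBI Gene ID 64397, chr15:42412823-42491141, GRCh38), had 8188 counts without and 5989 with PPMX-T003, a log2 fold change of -0.33 (interval -0.38 to -0.29). ZNF431 (170959, chr19:21142040-21196053), a KRAB gene of the chromosome 19 short arm, had 1120 and 789 counts (-0.39, -0.52 to -0.26). ZNF148 (7707, chr3:125225669-125375354), a regulator that binds GC-rich promoters, had 4948 and 3785 (-0.27, -0.33 to -0.21). These 3 genes were lower with PPMX-T003 by clearly more than counting error. ZNF507 went from 2973 to 2258 counts (-0.28), ZNF510 from 1113 to 816 (-0.33), ZNF264 from 2094 to 1586 (-0.28), ZNF749 from 1165 to 875 (-0.30) and ZNF654 from 1507 to 1147 (-0.28). Of these 5 genes, ZNF510, ZNF264 and ZNF749 encode KRAB proteins. Deposited TPM fell as well in all 8, for example from 39 to 30 for ZNF106 and from 25 to 20 for ZNF148.

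Most of the highest members had transcripts rich in G and C. ZNF668, which has been tied to DNA repair (79759, chr16:31060847-31074240), had 748 counts without and 941 with PPMX-T003 (log2 fold change 0.45, interval 0.31 to 0.59). ZNF787 (126208, chr19:56087366-56121295) had 1571 and 1816 (0.33, 0.23 to 0.42), and its neighbour ZNF444 (55311, chr19:56132553-56160893) had 1055 and 1199 (0.30, 0.18 to 0.42). ZNF213 went from 1282 to 1420 counts (0.26), and these were the 4 members at least 1.2-fold higher. Their transcripts had GC contents of 64.3%, 70.3%, 68.7% and 65.6%. ZNF622, which acts in the last cytoplasmic steps of large ribosomal subunit assembly, had 2174 and 2361 counts (0.24), ZNF48 had 1324 and 1456 (0.25) and ZNF574 had 1785 and 1937 (0.23), at GC contents of 53.2%, 61.2% and 62.5%. ZNF397, a gene of the SCAN type with 44.4% GC, had 1066 and 1178 counts (0.26), but its deposited TPM went the other way, from 9 to 6. Its direction therefore depends on which deposited value is read.

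The members with the most reads were all lower. ZNF207 had 15620 counts without and 13307 with PPMX-T003 (-0.11), ZNF664 had 8675 and 7316 (-0.13), and ZNF146 had 8400 and 6936 (-0.16). ZNF770 had 7074 and 5619 (-0.21), and ZNF609, a partner of the cohesin loader NIPBL, had 6586 and 5390 (-0.17). With ZNF106 these are the 6 members with the highest summed counts, and each interval lay below 0. Among all 36 members with at least 5000 summed counts, 30 lay below 0 and the median was -0.13, beside -0.020 for 3624 genes of like expression with as many counts. Among the 57 members with fewer than 2500 counts the median was -0.024, beside 0.00042 for 1104 other genes. The transcripts of the 36 abundant members had a median GC content of 41.9%, beside 47.6% for the other genes.

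**Figure D2:**
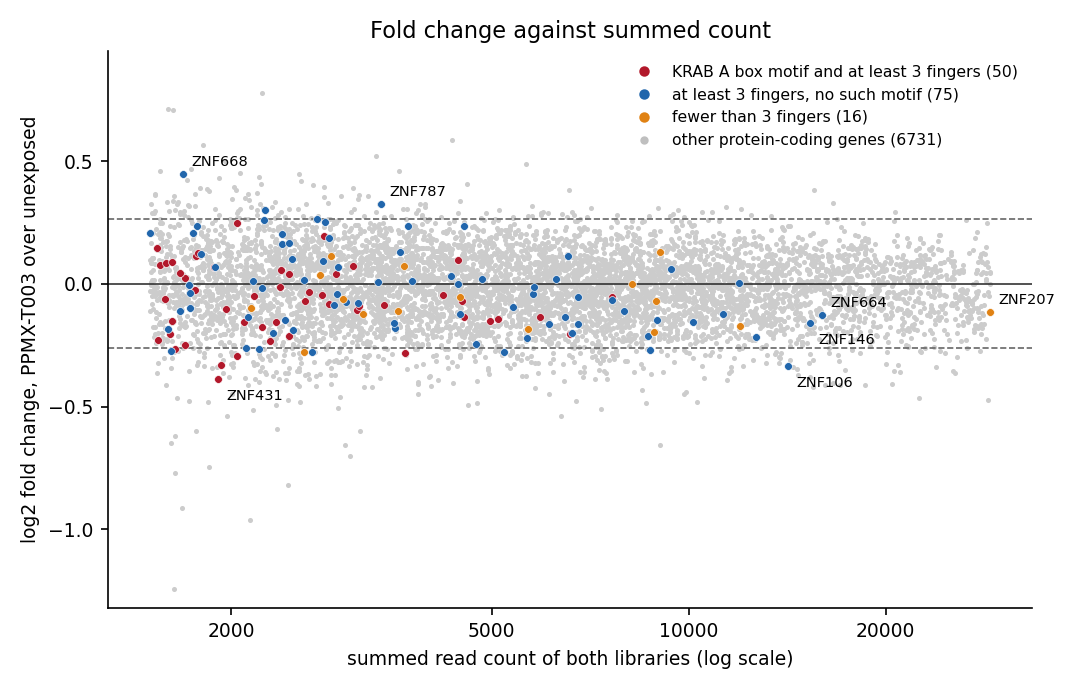
Log2 fold change (PPMX-T003 over unexposed, y axis) against the summed read count of both libraries (x axis, log scale) for the 141 members, coloured by protein class, over 6731 other protein-coding genes in grey. Dashed lines mark a 1.2-fold difference. Most members with over 5000 counts lie below 0, among them ZNF207, ZNF664, ZNF146 and ZNF106.

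Genes next to the count threshold lay on both sides of 0. Just inside it lay ZNF581 with 729 counts without and 776 with PPMX-T003 (0.21), ZNF74 with 763 and 778 (0.14) and ZNF805 with 867 and 681 (-0.23). Just outside it lay ZNF236 with 807 and 682 (-0.13), ZNF789 with 735 and 739 (0.12) and ZNF580 with 707 and 761 (0.22).

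By their protein sequence the members fell into 3 classes that the selection had not used. Coding sequences were translated and searched for C2H2 fingers and for a signature of the end of the KRAB A box. At least 3 fingers and the signature were found in 50 members, at least 3 fingers without it in 75, and fewer than 3 fingers in 16. The signature misses KRAB domains whose A box diverges, so the class without it holds some KRAB genes too. Finger number had a median of 12 (4 to 22) in the KRAB class and of 8 (3 to 31) in the class without the signature.

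Members of the KRAB class, typical repressors of the TRIM28 pathway, had a median log2 fold change of -0.068 (-0.39 to 0.25), with 34 of 50 below 0. At least 1.2-fold lower were 5 of them, ZNF431, ZNF510, ZNF749, ZNF264 and ZNF558, and 0 were as much higher. The 75 members with fingers and no signature had a median of -0.043 (-0.33 to 0.45), with 44 below 0, 6 at least 1.2-fold lower and 4 higher. These are 10% and 0% of the KRAB class and 8% and 5.33% of the other, beside 4.68% and 2.27% of all genes. Beyond counting error, 20 KRAB members were lower and 3 higher (40% and 6%), and in the other class 31 were lower and 18 higher (41.3% and 24.0%), beside 33.3% and 28.4% of all genes. The median GC content of transcripts was lower in the KRAB class, 44.2% beside 46.9%. Among members with a GC content of at least 55%, 1 of 5 in the KRAB class and 5 of 24 without the signature lay below 0, and among those under 45% these were 23 of 29 and 29 of 33. From 45% to 55% they were 10 of 16 and 10 of 18. From the lowest to the highest of these GC ranges the medians were -0.087, -0.078 and 0.098 in the KRAB class and -0.15, -0.0089 and 0.11 without the signature, so neither class was lower throughout. With a wider signature that takes in diverging A boxes, the median of the then 61 KRAB members was -0.069. After removal of a regression on GC content and length, described below, the 50 members of the KRAB class had a median of 0.0011, with 24 below 0.

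Some genes of the class without the signature are known regulators. ZNF217, a component of corepressor complexes and an oncogene in breast tumours, had 2660 counts without and 2067 with PPMX-T003 (-0.25). ZNF143, an activator that binds many promoters, had 1153 and 969 (-0.13), while its close relative ZNF76 had 897 and 824 (-0.0052). ZNF410, known for its control of the chromatin remodeller gene CHD4, had 1741 and 1613 counts (0.0071). ZNF335, a subunit of a histone methyltransferase complex, had 3269 and 3263 (0.11). These genes, chosen for their known roles after their values were seen, lay on both sides of 0.

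The 16 members with fewer than 3 recognised fingers had a median of -0.085 (-0.28 to 0.13), with 11 below 0. The following were named for their known roles after their values were seen. ZNF598, the ubiquitin ligase that senses collided ribosomes, had 4502 counts without and 4544 with PPMX-T003 (0.13), and the ribosome biogenesis gene ZNF593 had 1864 and 1806 (0.072). ZNF330 had 4899 and 3946 (-0.19), and ZNF638, an RNA-binding protein, had 4743 and 4162 (-0.071). ZNF326, a part of a complex that couples splicing to transcription, had 4262 and 3931 (0.00062). Beyond counting error, 8 members of this class were lower and 2 higher (50% and 12.5%, beside 33.3% and 28.4% of all genes).

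The fold changes also went with base composition. Transcript GC content was known for all 141 members, taken as the median over GENCODE 29 transcripts matched through RefSeq mRNAs. It ran from 34.0% to 70.3% with a median of 45.4%, and the genes of like expression had a median of 47.7%. Under 45% lay 68 members (48.2%), beside 39.8% of the other genes. Low GC content is therefore a tendency of the family and not a property of each member, since 32 members reached 55% or more.

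Within the members, Spearman's rho between GC content and log2 fold change was 0.58 (Pearson's r 0.64, n = 141 genes), and among the other genes it was 0.57 (0.53, n = 6724). Members under 45% had a median of -0.12, with 56 of 68 below 0. Those from 45% to 55% had a median of -0.063, with 27 of 41 below 0. Members of at least 55% had a median of 0.099, with 6 of 32 below 0. Among the other genes the medians over the same ranges were -0.097, 0.0014 and 0.088. Below 0 lay 79.8%, 49.7% and 21.6% of them. Low-GC members were lower and high-GC members higher, and so were other genes.

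The 7422 protein-coding genes with at least 1500 counts and a known transcript were divided into 10 equal bins of GC content, which places each member beside genes of like composition. In the lowest bin, up to 39.0% GC, 16 of 18 members and 87.3% of 725 other genes lay below 0, with medians of -0.17 and -0.14. In the highest bin, from 60.8%, 0 of 19 members and 17.3% of 724 other genes lay below 0, with medians of 0.20 and 0.11. The largest gap in a middle bin was at 45.2% to 47.8% GC, where 14 members had a median of -0.14 and 728 other genes -0.030. ZNF267, a member of this bin at 45.9% GC, has a coding sequence with 37.3% GC. In ZNF267, and in ZNF644 and ZNF407 of other bins, the coding sequence is longer than the median matched transcript, so their bins are uncertain. From the others' median of the same bin, members differed by a median of -0.025, and 84 of 141 lay below it. A robust regression of fold changes on transcript GC content and length was fitted to the 9512 protein-coding genes with a known transcript and at least 200 counts. After its removal the members' median was -0.0073, beside -0.0080 for the protein-coding genes with at least 1500 counts and a known transcript. The KRAB class then had a median of 0.0011, and the members' difference within bins was 0.0017. The class with fewer than 3 fingers had a median of -0.076, with 11 of 16 below 0. These 11 were not all the same genes as before the regression, since ZNF593 and ZNF428 replaced ZNF638 and ZNF831. The 36 members with at least 5000 counts were at -0.046. On that scale the members' median was close to that of the protein-coding genes, while these smaller sets lay lower.

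**Figure D3:**
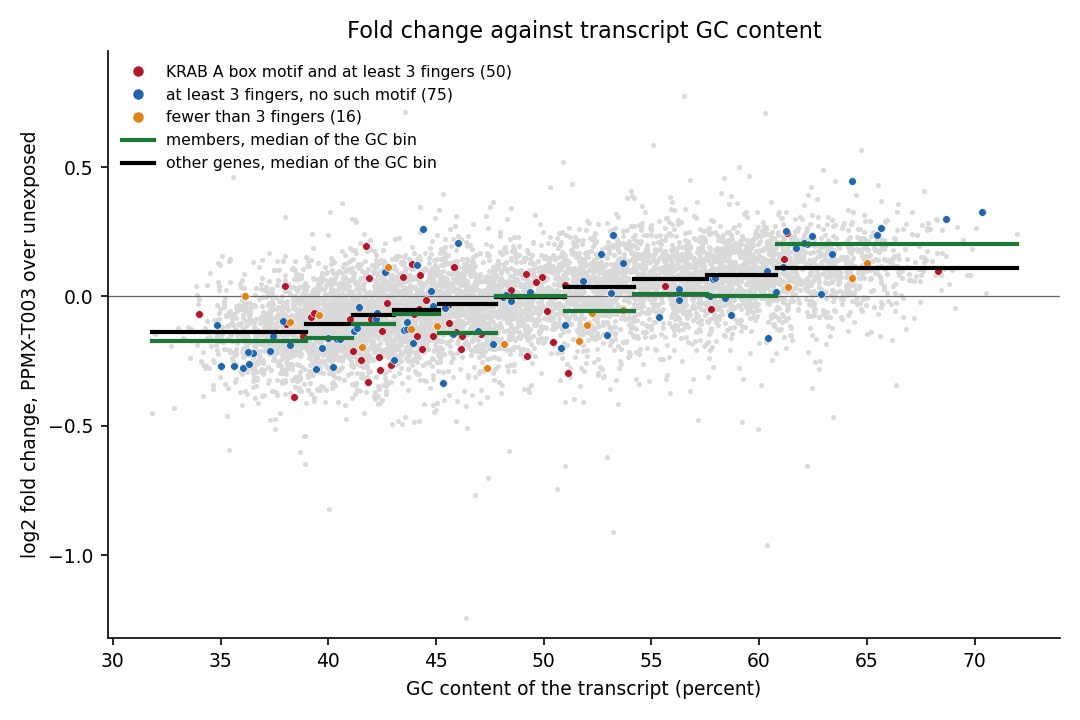
Log2 fold change (PPMX-T003 over unexposed, y axis) against transcript GC content in percent (x axis) for the 141 members, coloured by protein class, over other protein-coding genes in grey. Bars give the median of members (green) and of other genes (black) in each of 10 bins of GC content. The medians of other genes rise from bin to bin, from -0.14 to 0.11, while those of members run unevenly from -0.17 to 0.20 and stay near or below 0 until the last bin.

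Some members stood away from genes of their own composition. Below the median of the other genes in their GC bin lay ZNF749, by -0.33, and ZNF106, by -0.30, followed by ZNF510 (-0.26), ZNF431 (-0.25), ZNF608 (-0.25) and ZNF276 (-0.24). The place of ZNF749 is uncertain, since its matched transcripts have a median of 1577.5 bases, less than its coding sequence of 2334 bases, which has 44.2% GC and not the 51.1% used for its bin. ZNF276 had 1942 counts without and 1603 with PPMX-T003 although its transcript has 60.4% GC. Above the others' median lay ZNF668, by 0.34, and ZNF397, by 0.31, followed by ZNF772 (0.27), ZNF552 (0.24), ZNF787 (0.21) and ZNF622 (0.20). ZNF772, at 41.8% GC, had 1350 and 1424 counts, but its deposited TPM was 12 in both libraries. It shares an exon with another gene, as do ZNF749 and ZNF431. Other genes' transcripts hold 18.4% of the 50-base stretches of ZNF552. Reads of such members may have been divided between genes, so their places are less certain. The place of ZNF397 rests on counts, since its deposited TPM fell from 9 to 6, a log2 fold change of -0.51 with a pseudocount of 1. These are the 6 lowest and the 6 highest members by this difference.

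Further features of the transcripts were set beside those of other genes. The median transcript length was 3547 bases, beside 2910.5 for the genes of like expression, and the 3′ untranslated region (UTR) had a median of 1716 bases in 137 members, beside 1094 bases. The pentamer ATTTA, the core of AU-rich elements through which many unstable mRNAs are degraded, occurred in the 3′ UTR of 111 of these 137 members (81.0%) and of 71.7% of the other genes. Per kilobase of 3′ UTR it was no denser in members, at 2.14 beside 2.35. By class, ATTTA occurred in 89.6% of KRAB members, 73.0% of those without the signature and 93.3% of those with fewer than 3 fingers. The longer TATTTAT occurred in 44 members (32.1%), beside 33.4%. Members with it had a median log2 fold change of -0.12 and those without it -0.024, and among the other genes these were -0.079 and 0.020. In both sets the transcripts with TATTTAT were also poorer in GC, with medians of 43.6% and 48.5% in members. Spearman's rho with the log2 fold change was -0.60 for the number of ATTTA in the 3′ UTR and -0.50 for its length (n = 137 members), beside -0.48 and -0.38 in the other genes (n = 6587). For finger number it was -0.016 (n = 141). The number of ATTTA also depends on 3′ UTR length and base composition, and its part in the result was not tested.

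A short sequence was frequent in the promoters of the members. RefSeq promoter windows of 300 bases on GRCh38.p14 were matched for 129 members. The hexamer CCGGAA, searched on both strands as CCGGAA or TTCCGG, is the core that many ETS factors bind. It occurred in 75 of them (58.1%), beside 35.7% of 5682 genes of like expression and 17.6% of all 27305 promoters. The TATA-like TATAAA, searched the same way, occurred in 4 (3.10%), beside 4.38% of genes of like expression and 11.95% of all promoters. Both motifs were picked after the data had been seen. Members with CCGGAA had a median log2 fold change of -0.066 and those without it -0.098. Promoter GC content had a median of 62.7% in members and was only loosely related to that of the transcript (Spearman's rho 0.26, n = 129) and to the fold change (0.21). Promoters of the lowest and the highest member by fold change are printed to show the motif, in capitals, in both.
ZNF431: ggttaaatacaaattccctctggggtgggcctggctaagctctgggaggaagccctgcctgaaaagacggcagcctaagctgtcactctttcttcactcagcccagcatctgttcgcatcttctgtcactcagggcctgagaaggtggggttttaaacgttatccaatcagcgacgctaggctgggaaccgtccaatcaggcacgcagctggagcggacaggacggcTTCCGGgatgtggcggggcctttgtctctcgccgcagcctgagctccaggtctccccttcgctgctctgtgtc
ZNF668: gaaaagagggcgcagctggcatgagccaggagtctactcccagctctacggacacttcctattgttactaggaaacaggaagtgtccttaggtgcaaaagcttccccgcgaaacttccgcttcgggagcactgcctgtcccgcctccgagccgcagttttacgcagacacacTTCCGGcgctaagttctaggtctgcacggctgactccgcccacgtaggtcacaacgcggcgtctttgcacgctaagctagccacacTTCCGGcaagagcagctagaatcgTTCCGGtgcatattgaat
The window of ZNF431 lies at chr19:21141790-21142089 on the plus strand and that of ZNF668 at chr16:31074191-31074490 on the minus strand. The promoter of ZNF431 holds 1 match and that of ZNF668 holds 3, and their GC contents, 58.3% and 56.3%, are close, unlike those of their finger units.

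Position in the genome added to the same picture. Chromosome 19 carried 44 members, with a median log2 fold change of -0.051 and a median GC content of 45.5%. The 382 genes of like expression on that chromosome had a median of 0.10 and a GC content of 60.7%, and 63 of them lay below 0, beside 27 of the 44 members. Members of chromosome 19 therefore lay lower than the other genes of the whole chromosome while differing from them in base composition. Genes next to the members were not compared here. With the regression on GC content and length removed, the order turned, at 0.0059 for these members and -0.0067 for the other genes. The 97 members elsewhere had a median of -0.071, beside -0.023 for the other genes there.

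Clusters were taken as 4 or more members with gaps of at most 1 Mb. The largest, at chr19:57191500-58475436, held 14 members from ZNF264 to ZNF324, of which 7 lay below 0 (median 0.0038). In the cluster at chr19:8806170-9675100, 6 of 7 members lay below 0 (median -0.10, GC content 43.5%). At chr16:30378312-31917357, 2 of 7 did (median 0.018, GC content 60.8%), where 18 other genes had a median of 0.050. Chromosome 7 held a low-GC and a high-GC cluster. The one at chr7:64666133-65401136 (36.4%) had a median of -0.084 over 4 members, and the one at chr7:149126408-149497809 (59.2%) had a median of 0.085 over 4. Neighbouring ZNF genes thus did not move as blocks within the largest cluster, where ZNF749 at -0.30 and ZNF324 at 0.25 both lie.

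Genes that KRAB proteins act through were described from a list of 19 corepressor genes. All 19 were measured, 11 lay below 0, and the median was -0.0074. TRIM28, the scaffold bound by KRAB domains, had 26503 counts without and 27867 with PPMX-T003 (log2 fold change 0.19, interval 0.17 to 0.21), the highest value of the list. SETDB1, its histone H3 lysine 9 methyltransferase, had 1971 and 1817 (-0.00011), and the SETDB1 partner gene ATF7IP had 1204 and 913 (-0.28). The heterochromatin protein gene CBX5 had 13990 and 11002 counts (-0.23), CBX3 had 13667 and 11953 (-0.076) and CBX1 had 6297 and 5909 (0.025). In the HUSH silencing complex and its effector, TASOR had 8771 and 7135 (-0.18), MPHOSPH8 3817 and 3411 (-0.045), PPHLN1 3647 and 3187 (-0.077) and MORC2 1426 and 1464 (0.15). The remodeller gene SMARCAD1, with 1265 and 949 counts (-0.30), was the lowest of the list. At least 1.2-fold lower were 2 of the list (10.5%) and higher 0, beside 4.68% and 2.27% of all genes. Beyond counting error, 8 were lower and 4 higher (42.1% and 21.1%), beside 33.3% and 28.4%.

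Of 38 genes of mRNA decay, all measured, 28 lay below 0 (73.7%, beside 52.6% of all genes) and the median was -0.068. The 5′-to-3′ exonuclease gene XRN1 had 4217 counts without and 3108 with PPMX-T003 (-0.32), and the decapping gene DCP1A had 3043 and 2295 (-0.29). They were the 2 at least 1.2-fold lower (5.26%, beside 4.68% of all genes), and 0 were as much higher (beside 2.27%). The list includes 4 genes below 1500 counts, a minimum that all genes of the comparison meet. CNOT1, the scaffold of the CCR4-NOT deadenylase, had 18384 and 15374 counts (-0.14), and the decapping activator DDX6 had 12235 and 9668 (-0.22). At the other end, ZFP36, which binds AU-rich elements and promotes decay, had 2430 and 2686 (0.26), and the decapping scaffold EDC4 had 6634 and 6653 (0.12). Beyond counting error, 17 were lower and 5 higher (44.7% and 13.2%, beside 33.3% and 28.4%). After the regression on GC content and length was removed, the decay list had a median of -0.029 and the corepressor list of 0.0036.

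Related zinc finger families with the same count minimum gave the following values. Of 22 ZBTB genes, which join fingers to a BTB domain, 15 lay below 0, with a median of -0.073, and ZBTB37 was the lowest at -0.37. Of 4 ZKSCAN genes 2 lay below 0, of 3 ZSCAN genes 2, and of 5 genes with the stem ZFP 2, the last group including ZFP36, whose fingers are of the CCCH type. The 6 KLF genes had a median of 0.050 and a GC content of 51.9%, and KLF2, a quiescence factor of lymphocytes, was the highest at 0.29. The medians of ZBTB, ZSCAN and ZKSCAN, at -0.073, -0.076 and -0.054, all lay near that of the ZNF members, at -0.066. Their GC contents were 42.7%, 49.4% and 46.4%. The 5 ZFP genes had a median of 0.043.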

How the data were processed

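The authors trimmed reads with Trimmomatic 0.38, mapped them with HISAT2 2.2.0 to hg38, quantified genes with StringTie 2.1.3b and named edgeR 3.17, per the submitters' notes. They deposited a whole-number read count per gene, written with commas and recorded under another unit for that reason, and TPM rounded to whole numbers, treated as a score. The 2 FPKM columns were not used. Handling of multiply mapped reads is not given in the sources used here.

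TMM scaling (30% and 5% trimmed), log2 CPM with a prior count of 2, Clopper-Pearson intervals and a robust regression on genes with at least 200 counts were computed in Python 3.11.15 (numpy 2.4.6, pandas 2.3.3, scipy 1.17.1, statsmodels 0.14.6) and checked on simulated data. No count model was fitted.

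Members and lists were chosen with earlier results of these data known. Named genes are the 8 lowest and 8 highest members by the interval bound nearest to 0, the 6 with most counts, neighbours of the threshold and list genes. Others were named after their values were seen. The plan was to describe the classes only with a protein table, and none was available. The class results therefore depart from the plan. Coding sequences of GENCODE 29, each gene's longest, were translated instead, a source chosen after seeing the data, as were the GC ranges of 45% and 55%, the ranges of counts and the rule for clusters.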

Additional observations from a re-analysis of the deposited data

How the results depend on the processing

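No paired analysis was possible because there was a single library on each side. Of 79 values under alternatives, 52 stayed close to the reported value (medians within the counting interval of the summed reads, counts within 1.5 times), 25 moved and 2 changed sign. The members' median was -0.075 with median-of-ratios and -0.054 with upper-quartile scaling, and the mean was -0.046. With the lower and the higher count threshold tried, which give 178 and 64 members, it was -0.051 and -0.11, the KRAB median -0.048 and -0.097, and the difference within GC bins -0.017 and -0.057. At the higher threshold 4 were 1.2-fold lower and 1 higher (3.98% and 1.37% of all genes), and 36 lower and 8 higher beyond counting error (36.2% and 29.98%), while at the lower 8 were 1.2-fold higher (2.79%). With TPM the members' median was -0.11 and the KRAB median -0.12, beside -0.059 for all genes, and 20 were lower and 2 higher (9.22% and 1.38% of all genes). Without members that share exons, the difference within bins was -0.044. The regression on GC content and length gave -0.0073 for the members, 0.0011 for the KRAB class and 0.0017 within bins. On that scale 1 member was lower (2.196% of the protein-coding genes with a known transcript). At the smaller fold tried 44 were lower and 18 higher (19.8% and 14.3% of all genes), and at 1.5-fold 0 and 0 (0.210% and 0.105%). The wider KRAB signature, the longest transcript and leaving out 16 members with shared sequence were chosen after seeing the data and moved no value that far. Counts fell where fewer members were left, and the cause of the other shifts was not tested. Reads of members that share exons or near-identical sequence may have been divided between genes, and depth limits the least expressed members.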

Other observations

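ZNF genes below the count minimum did not share the members' lower median. The 91 with 500 to 1499 summed counts had a median log2 fold change of -0.0028, with 47 below 0, and a median GC content of 46.1%. All 177 with 20 to 1499 counts had a median of 0.0099, with 86 below 0, at a GC content of 45.1%, close to the members' 45.4%, and for 124 of them the counting interval held 0. Their values are therefore less precise than those of the members, and the cause of the different median was not tested.

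Rows named ZNF outside the rule, with at least 100 counts, included 10 pseudogenes. Of these, 9 lay below 0 (median -0.16), beside 52.6% of all genes with at least 1500 counts. Among these 9, the counting interval held 0 for ZNF767P, ZNF192P1 and ZNF815P. It also held 0 for ZNF321P, which lay above 0. ZNF731P went from 533 counts without to 323 with PPMX-T003 (-0.60), and ZNF286B, a near-identical copy of the member ZNF286A, from 235 to 157 (-0.46). ZNF286A itself had 1286 and 1009 counts (-0.23). Other genes' transcripts hold 56.4% of its 50-base stretches, and how reads of such copies were assigned is not given, which leaves both values uncertain. Antisense transcripts numbered 8, of which 3 lay below 0 (median 0.082), and the interval held 0 for all of them but ZNF674-AS1.

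Deposited TPM moved against the count fold change in 10 members, and in 2 of these the count difference exceeded counting error. They are ZNF397, described above, and ZNF800, with 3680 counts without and 2957 with PPMX-T003 but 17 and 18 TPM.

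The identity of the cells was checked on marker genes. All 8 NK cell markers were detected, with a summed TPM of 6482 without and 7088 with PPMX-T003, led by NKG7 (3215 and 3445), which is found in cytotoxic granules. Among the T cell markers, the CD3 genes CD3D and CD3G and the coreceptor gene CD8B had 0 counts in both libraries, and CD4 had 4 and 0. TRAC, the T cell receptor alpha constant gene, had 1501 and 1312 counts, or 75 and 69 TPM. This was above the NK markers CD7 (12 and 14 TPM) and KLRD1 (8 and 7 TPM). B cell, myeloid and erythroid markers were at 0 or 1 TPM in both libraries.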
